A study of Mus musculus with 46 samples.

Results

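The genes of the mitochondrial protein import machinery were followed across mouse islets and livers labelled as control or as knockout of Tfam, Clec16a or Mfn. Members were taken by symbol: every gene named Timm or Tomm followed by a digit, together with Pam16, Dnajc15, Dnajc19, Grpel1, Grpel2, Pmpca, Pmpcb, Chchd4, Gfer, Samm50, Mtx1 and Mtx2. The rule found 38 of the 55487 genes in the files, and 0 members had a symbol marking a pseudogene. They comprised 10 genes named for the translocase of the outer membrane (TOM), 3 of the sorting and assembly machinery (SAM), 2 of the intermembrane space relay and 6 small TIM chaperones. A further 3 belonged to the inner membrane translocase TIM22, 5 to the translocase TIM23, 6 to the import motor and 2 to the matrix processing peptidase. The last member, Tomm6os, is an antisense RNA that the symbol rule takes in and is no subunit.

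RNA was sequenced in 46 libraries that the labels place in 11 groups of 3 experiments. Tfam islets comprised 5 female and 3 male libraries labelled Tfam control, and 4 female and 2 male libraries labelled Tfam KO. Clec16a islets comprised 4 libraries labelled Clec control on the RFD diet and 6 on the HFD diet, and 4 labelled Clec KO on RFD and 5 on HFD. The labels write out neither diet and give no sex for these islets. Livers comprised 6 libraries labelled Control, 4 labelled Mfn DKO and 3 labelled Tfam KO, all of unstated sex and all with AAV in their description. Islets had been cultured overnight and livers flash frozen. The promoter or recombinase behind each deletion, the ages of the mice and whether libraries came from separate animals are not given in the labels, which number them as biological replicates. Tfam packages mitochondrial DNA and drives its transcription, Clec16a is known for its part in mitophagy, and Mfn1 and Mfn2 fuse the outer membranes of mitochondria.

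Nearly all mitochondrial proteins are made in the cytosol and are brought in after translation. Receptors of the TOM complex recognise them, the Tomm40 channel passes them across the outer membrane, and they are then sorted. Barrel-shaped outer membrane proteins go to SAM, cysteine-rich intermembrane space proteins are oxidised by the Chchd4 and Gfer relay, carriers are handed by small TIM chaperones to TIM22, and proteins with a presequence enter through TIM23. The import motor, built on the chaperone Hspa9, pulls the latter into the matrix, where the processing peptidase cuts off the presequence.

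Sequencing depth, as the sum of counts over genes, was deepest in Tfam islet libraries (55223041 to 83342809). Clec16a islet libraries held 16235173 to 55810879 counts, and liver libraries 41961114 to 56894510. The targeted RNA was lower in 3 of the 4 knockouts. Tfam lay between 37.8 and 44.7 CPM in control islets and between 16.0 and 19 CPM in Tfam KO islets. CPM is the count as a share of a fixed number of counts, here on library sizes scaled by the trimmed mean of M values (TMM). In livers Tfam fell from 54.2 to 66.2 CPM to 13.1 to 15.9 CPM in Tfam KO, and Mfn1 and Mfn2 had log2 fold changes of -2.0 and -2.04 in Mfn DKO (edgeR quasi-likelihood test, adjusted p = 2.64e-05 and 2.97e-05). Clec16a RNA was not lower under its KO label (log2 fold change 0.10 ± 0.085 SE, adjusted p = 0.425), so those libraries are called "labelled Clec16a KO" throughout. A set of 8 β-cell markers summed to 188200 to 294900 CPM in Tfam control islets and to 105600 to 141300 CPM in Tfam KO islets. In the Clec16a islets the same sum was 210700 to 348600 CPM in controls and 138800 to 250200 CPM under the KO label. Marker sums of other cell types that did not overlap between genotypes were, on RFD, endothelial (134.8 to 158.4 CPM in controls, 228.3 to 265.9 under the KO label), fibroblast and stellate (40.5 to 52.5, then 53.6 to 95.4) and macrophage (137 to 165, then 88.2 to 121). On HFD no list separated the genotypes, with endothelial at 142 to 187 and 167 to 279.6. In male Tfam islets the lists that did not overlap, beside the β-cell list, were alpha cell (24670 to 34370 CPM in controls, 38690 to 51590 in KO), fibroblast and stellate (31.5 to 44.8, then 80.01 to 82.4), macrophage (89.97 to 98.4, then 155 to 162) and duct (247 to 267, then 331 to 396). In female Tfam islets it was delta cell (4326 to 7502, then 2535 to 3664). A set of 8 hepatocyte markers summed to 93500 to 138000 CPM in control livers, 78470 to 97390 in Mfn DKO livers and 22450 to 94160 in Tfam KO livers. The 8 β-cell markers summed to 406.5 to 498.3 CPM in control livers, 242.5 to 379.3 in Mfn DKO livers and 93.56 to 353.4 in Tfam KO livers. Among them Ins1, Ins2, Iapp, Pdx1 and Nkx6-1 were at 3 counts or fewer in every liver library. Almost all of that sum therefore came from the other markers on the list, Slc2a2, Mafa and G6pc2. In bulk RNA, fewer cells of a type and less RNA per cell cannot be told apart, and the part of these marker shifts in the results was not tested.

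All fold changes are on the TMM scale, which sets the bulk of genes near 0. With plain library totals the median of all genes moved to 0.20 in Tfam KO islets, 0.07 in islets labelled Clec16a KO, 0.21 in Mfn DKO livers and 0.46 in Tfam KO livers, so each change is relative to most other genes in that fit. By deposited TPM, a measure per transcript length that is also a share of a total, all 34 members at 1 TPM or more were higher in Tfam KO islets and in Tfam KO livers. By TMM-scaled CPM 24 and 23 of them were. Deposited TPM was therefore used only for levels in control tissue, with no test.

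Tomm7, Timm8b and Timm13 were the 3 highest members in both islet control sets and among the first 4 in livers, while Timm9, another small TIM chaperone, had 5.15 TPM in Tfam control islets. In each of the 3 control sets 34 members reached 1 TPM, with medians of 17.4 TPM in Tfam control islets, 14.9 in Clec16a control islets and 32.3 in control livers. Tomm7, a small subunit of the TOM channel, had 98.4 ± 11.6 TPM (SD, n = 8) in Tfam control islets. It was followed by the small TIM chaperones Timm8b at 92.5 ± 11.0 and Timm13 at 58.6 ± 2.87. The first and second of these overlapped between libraries and both lay above every library of the third. Clec16a control islets had Timm8b at 98.0 ± 15.5, Tomm7 at 75.3 ± 13.8 and Timm13 at 47.8 ± 8.89 TPM (SD, n = 10), each overlapping the next. Control livers had Timm8b at 145 ± 20.1 and Timm13 at 141 ± 12.2 TPM (SD, n = 6), both above Tomm7 at 101 ± 7.07 and Grpel1 at 99.8 ± 6.47, which overlapped each other.

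**Figure D1:**
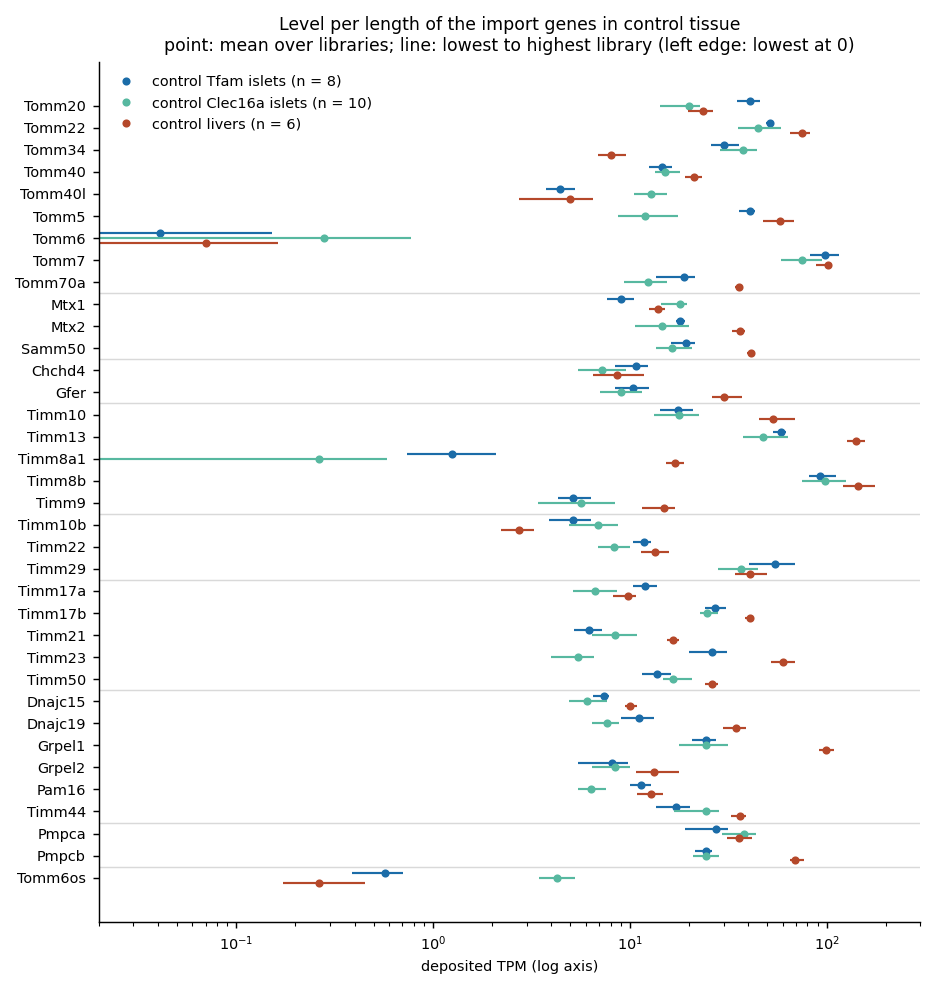
Deposited TPM (log axis) of 36 members in control tissue, ordered by complex from TOM at the top to the antisense RNA Tomm6os at the bottom. Points are means over 8 Tfam control islet, 10 Clec16a control islet and 6 control liver libraries, and lines run from the lowest to the highest library. Timm8b and Timm13 are among the highest genes in every set, and Timm8a1 spans from 0.264 TPM in Clec16a control islets to 17.0 TPM in control livers.

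Some members differed between the control sets by far more than their spread, although tissue and experiment cannot be told apart here. Grpel1, a nucleotide exchange factor of the import motor, had 24.4 ± 2.29 TPM in Tfam control islets, 24.4 ± 4.68 in Clec16a control islets and 99.8 ± 6.47 in control livers. Tomm34, a cytosolic co-chaperone of import, went the other way, with 30.3 ± 4.43 and 37.8 ± 5.44 TPM in the islet sets and 8.0 ± 1.03 in livers. Timm23, the channel of TIM23, had 26.3 ± 3.91 TPM in Tfam control islets, 5.47 ± 0.813 in Clec16a control islets and 59.8 ± 5.43 in livers. A stretch of 1121 bases of Timm23 is 99.9% identical to Gm10273, so the authors' counting could have split its reads. Timm8a1, a small TIM chaperone encoded on the X chromosome, had 1.25 ± 0.414 and 0.264 ± 0.215 TPM in the islet sets and 17.0 ± 1.54 in livers. Its 612 bases shared with Gm9797 are 100% identical, so its level is likewise uncertain.

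In the pairs of related genes the same partner led wherever the libraries separated them. Timm17b, a subunit of TIM23, had 27.0 ± 2.06, 24.6 ± 1.61 and 41.0 ± 1.16 TPM in the Tfam islet, Clec16a islet and liver controls, against 11.9 ± 1.04, 6.69 ± 1.03 and 9.75 ± 1.1 TPM for Timm17a. The channel gene Tomm40 had 14.6 ± 1.17, 15.2 ± 1.64 and 21.2 ± 1.34 TPM in the same order, against 4.40 ± 0.555, 12.9 ± 1.79 and 4.99 ± 1.37 for Tomm40l. Tomm40 and Tomm40l overlapped in the Clec16a controls only, and 64.3% of the exonic bases of Tomm40l overlap Nr1i3 on the opposite strand. Grpel2, the other exchange factor, had 8.10 ± 1.47, 8.47 ± 1.27 and 13.2 ± 2.75 TPM, below Grpel1 in all 3 sets. Dnajc19, a J-protein of the motor, had 34.6 ± 3.14 TPM in livers against 10.1 ± 0.588 for Dnajc15, but the ranges of these genes overlapped in the Clec16a controls (7.62 ± 0.843 against 6.09 ± 0.946). Timm8a2 had between 0 and 6 counts in any library. It was not tested, nor was Tomm20l (0 to 5 counts), and a count of 0 allows up to 3 counts. Tomm6 (0 to 14 counts) was tested only in the joint fit of both islet experiments, where it did not pass (difference 1.91 ± 1.118, adjusted p = 0.274). Of the exonic bases of Tomm6, 84.2% are shared with Gm21981. The remaining 35 members passed the filter on low counts in each experiment.

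In Tfam KO islets the higher calls came from TOM, SAM, the relay, the small TIM chaperones, TIM23 and the motor. The 2 lower calls, both in TIM22, did not pass on library totals. Over both sexes 12 of 35 members rose and 2 fell at an adjusted p of 0.05 or less, with 20.9% of the 19752 genes tested called in this comparison, 11.6% higher and 9.29% lower. The members' share called was 40%. The median log2 fold change was 0.15 over the members and -0.01 over all genes. On library totals 25 members were called, 25 higher and 0 lower, and 91% of all called genes were higher against 55.5% on the TMM scale. The members' median was then 0.36 and that of all genes 0.20.

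Gfer, the sulfhydryl oxidase that recharges the relay, lay at 8.61, 11.1 and 13.1 CPM (lowest, median and highest of 8 control libraries) and at 13.8, 15.5 and 15.9 CPM in the 6 Tfam KO libraries. Every KO library was above every control library, and the log2 fold change was 0.49 ± 0.090 SE (edgeR quasi-likelihood test, adjusted p = 0.00103). A stretch of 573 bases of Gfer is 99.8% identical to a transcript of Dst.

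Timm50, the subunit of TIM23 that receives presequences, lay at 15.0, 17.3 and 19.4 CPM in controls and at 19.3, 21.2 and 23.2 CPM in Tfam KO islets. Above every control were 5 of 6 KO libraries, and the log2 fold change was 0.29 ± 0.058 (adjusted p = 0.00203). Grpel1 lay at 35.6, 40.7 and 45.5 CPM in controls and at 43.6, 48.7 and 51.8 CPM in Tfam KO islets, with 5 of 6 KO libraries above every control (log2 fold change 0.26 ± 0.057, adjusted p = 0.00336). Its partner Grpel2 lay at 22.2, 25.3 and 29.6 CPM in controls and at 30.6, 31.5 and 42.8 CPM in Tfam KO islets. No library of Grpel2 overlapped between the groups, and the log2 fold change was 0.41 ± 0.092 (adjusted p = 0.0042). Grpel2 shares 677 bases at 97.8% identity with Gm5587.

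Timm10b, a small TIM-like subunit of TIM22, was the member with the smallest adjusted p among those that fell. Its libraries lay at 7.47, 8.44 and 10.2 CPM in controls and at 6.27, 6.62 and 8.0 CPM in Tfam KO islets, and 5 of 6 KO libraries were below every control. The log2 fold change was -0.32 ± 0.079 (adjusted p = 0.00896) on the TMM scale and -0.11 (adjusted p = 0.327) on library totals. Timm29, another subunit of TIM22, fell by 0.21 ± 0.060 on the log2 scale (adjusted p = 0.02), and on library totals its log2 fold change was -0.003 (adjusted p = 0.978). Its call was also lost without either KO male library (0.0747 and 0.0616). Timm10b shares 365 bases at 99.7% identity with the overlapping gene Gm45799.

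**Figure D2:**
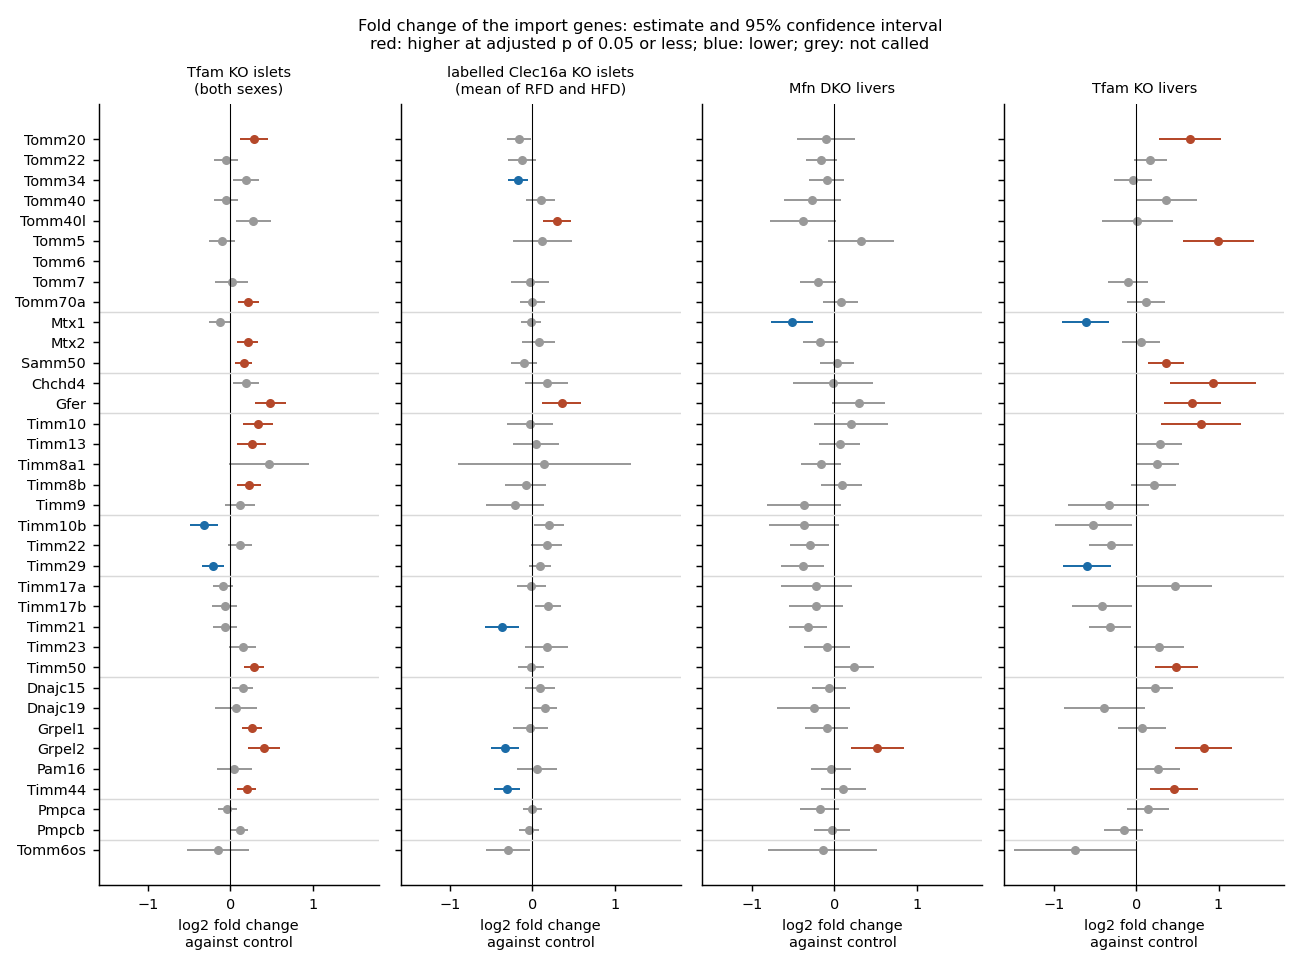
Log2 fold change against control (TMM scale) of each tested member, with its 95% confidence interval, in Tfam KO islets, islets labelled Clec16a KO, Mfn DKO livers and Tfam KO livers. Red points are higher and blue points lower at an adjusted p of 0.05 or less. Gfer and Grpel2 are red in both Tfam columns, and Grpel2 is blue under the Clec16a label. The lower calls of Timm10b, Timm29 and Mtx1, and those of Timm21 and Tomm34 under the Clec16a label, do not pass on library totals.

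By role, the outer membrane had 2 of 8 tested TOM members higher in Tfam KO islets, the receptors Tomm20 (log2 fold change 0.28 ± 0.079, adjusted p = 0.0174) and Tomm70a (0.22 ± 0.061, adjusted p = 0.018). Tomm20 has 4 near copies in the genome. The other 6 TOM members did not pass, and neither the channel gene Tomm40 (-0.05) nor the receptor Tomm22 (-0.05) was among the positive ones. Of SAM, the barrel insertase Samm50 rose by 0.16 ± 0.048 (adjusted p = 0.0267) and the metaxin Mtx2 by 0.21 ± 0.061 (adjusted p = 0.023), while Mtx1 had -0.13 and did not pass. In the relay Chchd4, the oxidoreductase that Gfer recharges, had 0.19 and did not pass. The small TIM chaperones Timm10 (0.34 ± 0.087, adjusted p = 0.0112), Timm8b (0.23 ± 0.070, adjusted p = 0.0284) and Timm13 (0.26 ± 0.083, adjusted p = 0.0362) rose, and the other 2 tested had positive values without passing. The call of Timm13 was lost in 8 of 14 fits with a library left out (adjusted p = 0.0579 to 0.0897), namely control female replicate 1, 2 or 5, control male replicate 1, KO female replicate 2 or 3, or either KO male. That of Timm8b was lost in 6 (0.0525 to 0.0795), without control female replicate 1 or 5, control male replicate 2 or 3, KO female replicate 1 or KO male replicate 1. That of Samm50 was lost in 6 (0.0544 to 0.0692), without control female replicate 1 or 2, KO female replicate 2 or 3 or either KO male, and with no filter on low counts (0.0932). That of Mtx2 was lost in 4 (0.0513 to 0.0607), without control female replicate 1, KO female replicate 3 or either KO male, and that of Tomm70a in 2, without KO female replicate 3 or KO male replicate 2.

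TIM23 was mixed in the same islets, with Timm50 higher and the other 4 members between -0.09 and 0.15. All 6 motor members had positive log2 fold changes, and 3 passed: Grpel1, Grpel2 and Timm44, which tethers the motor to TIM23 and had 0.20 ± 0.054 (adjusted p = 0.0153). Neither processing peptidase subunit passed, with Pmpca at -0.04 and Pmpcb at 0.11. Among the related pairs, Timm17a (-0.09), Timm17b (-0.07), Tomm40l (0.28, adjusted p = 0.058), Dnajc15 (0.15), Dnajc19 (0.07) and Timm8a1 (0.47 ± 0.231, adjusted p = 0.17) did not pass either. Timm8a1 rested on 32 to 109 counts in these islets.

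Promoter stretches of some members that moved in the Tfam KO islets, and of Mtx1, called in livers only, are shown. They let a reader see which known promoter elements of nuclear mitochondrial genes these sequences carry. Windows of 250 bases before to 50 after the start were taken from RefSeq (GRCm38.p6) for 34 members, in 36 windows, and were searched on both strands. Grpel2, Timm21, Tomm40l and Tomm7 had no window, so the motif counts leave them out. The core letters of the NRF1 motif, GCGCANGCG, were in 5 member windows (13.9%) and in 6.25% of all 32851 windows. The ETS motif, CCGGAAGT, was in 8 member windows (22.2%) and in 3.89% of all. The YY1 core, AAGATGGCG, was in 2 member windows (5.56%) and in 1.4% of all. The composite motif of ATF4 with C/EBP, TGATGNAA, was in 0 member windows and in 3.97% of all. A match describes the letters and is not evidence of binding, and no member window held more than 1 kind of these motifs. All printed stretches but that of Gfer hold a match, so they do not show how often one occurs. Grpel1, Samm50 and Timm44, also higher in these islets, had no match in their windows. The stretches below give the last 100 bases before the start of Tomm20 (chr8:126945922-126946021, minus strand), Tomm70a (chr16:57121614-57121713, plus strand), Mtx2 (chr2:74825712-74825811, plus strand) and Gfer (chr17:24696157-24696256, minus strand). Each is printed 5′ to 3′ on the gene's strand, and capitals mark NRF1 in Tomm20 and ETS in Tomm70a and Mtx2.
Tomm20: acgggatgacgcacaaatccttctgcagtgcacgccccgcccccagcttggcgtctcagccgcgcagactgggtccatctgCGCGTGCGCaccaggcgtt
Tomm70a: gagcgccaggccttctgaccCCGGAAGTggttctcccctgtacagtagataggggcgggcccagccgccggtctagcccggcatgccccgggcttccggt
Mtx2: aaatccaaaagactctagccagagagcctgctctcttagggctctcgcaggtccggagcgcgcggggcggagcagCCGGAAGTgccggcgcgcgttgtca
Gfer: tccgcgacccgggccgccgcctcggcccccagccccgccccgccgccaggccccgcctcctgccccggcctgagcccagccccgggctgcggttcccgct

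For Gfer, the member with the smallest adjusted p, none of the 4 motifs was in the window. In 5 members without a match before the start one lay after it. The 30 bases around it are printed for 3 of these, namely Timm10 (chr2:84827025-84827054, plus strand, capitals ETS), Timm50 (chr7:28312015-28312044, minus strand, capitals YY1) and Mtx1 (chr3:89213876-89213905, minus strand, capitals YY1). The other 2 were Timm8b (NRF1) and Timm10b (ETS). In Tfam KO livers Timm50 rose and Mtx1 fell on the TMM scale, and the fall of Mtx1 did not pass on library totals. The part of the YY1 letters in either change was not tested.
Timm10: ctagacttccttCCGGAAGTgacccacgtg
Timm50: cgtcagcgcAAGATGGCGgcctcggcggct
Mtx1: agagcgtacAAGATGGCGgcgcccatggag

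The sexes gave similar sizes with fewer calls. In females 7 members rose and 0 fell, with 10.8% of all genes called (6.67% higher and 4.17% lower): Gfer, Grpel1, Grpel2, Timm10, Timm50, Tomm20 and Tomm70a. In males, with 2 KO libraries, 1 member was called and 8.93% of all genes were (5.24% higher and 3.69% lower): Timm29 fell by 0.38 ± 0.091 (adjusted p = 0.0159), against -0.12 ± 0.066 in females. The log2 fold change of Gfer was 0.50 ± 0.115 in females and 0.46 ± 0.154 in males, and that of Grpel2 was 0.40 ± 0.118 and 0.42 ± 0.159. On library totals, a setting that moves all genes together, 21 members were called in females and 14 in males, all of them higher. Timm29 was not among those in males. The interaction of genotype with sex called 0 members and 0 genes by edgeR and 0 members by the Wald test of DESeq2. At an unadjusted p under 0.05 it held 1 member, Timm29 (difference -0.26 ± 0.112, adjusted p = 0.754), beside 1230 of 19752 genes. The count for females ran from 1 to 9 as libraries were left out: without Tfam KO female replicate 4 it was 1, and without replicate 3 it was 2. Without control female replicate 1 it was 3, and without control replicate 3 or 5 it was 4. The call of Timm29 in males was lost without control male replicate 2 or either male KO library, and over both sexes 9 members passed without either male KO library.

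In islets labelled Clec16a KO 2 motor members fell, Grpel2 and Timm44, and Tomm40l and Gfer rose. Over the mean of both diets 2 of 35 members rose and 4 fell, with 21.6% of the 17254 genes tested called, 11.6% higher and 10.1% lower. The members' share of 17.1% lay below that background. The median was 0.001 on the log2 scale over the members and -0.005 over all genes. On library totals 7 members were called, 5 higher and 2 lower, with 73% of all called genes higher against 53.5% on the TMM scale. No called member separated the 9 labelled KO libraries from the 10 controls completely.

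Grpel2 lay at 24.2, 27.5 and 30.9 CPM (lowest, median and highest) in controls and at 18.5, 21.3 and 30.9 CPM under the KO label. Below every control were 7 of 9 labelled KO libraries, and the log2 fold change was -0.33 ± 0.080 (edgeR quasi-likelihood test, adjusted p = 0.00513). Timm44 lay at 34.8, 44.2 and 48.1 CPM in controls and at 28.7, 36.3 and 42.0 CPM under the KO label, with 4 of 9 labelled KO libraries below every control (-0.31 ± 0.077, adjusted p = 0.00703). Timm21, the TIM23 subunit known to contact the respiratory chain, lay at 11.9, 14.8 and 18.5 CPM in controls and at 8.84, 11.9 and 15.9 CPM under the KO label (-0.37 ± 0.10, adjusted p = 0.0114, and 0.0541 on library totals). Of the 4 lower calls 2 were in the motor, 1 in TIM23 and 1 in TOM, with 10.1% of all genes called lower. Whether the lower calls gathered in any complex was not tested.

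Tomm40l rose from 26.3, 32.4 and 36.5 CPM in controls to 33.3, 38.4 and 50.5 CPM under the KO label, with 7 of 9 libraries above every control (0.30 ± 0.082, adjusted p = 0.0125). Of its exonic bases 64.3% overlap Nr1i3 on the opposite strand, and the strand setting of the counting is not given. Part of these counts could therefore belong to Nr1i3. Gfer rose as well, from 8.0, 9.56 and 12.7 CPM to 9.39, 12.3 and 15.7 CPM (0.36 ± 0.114, adjusted p = 0.03). That call was lost in 6 of 19 fits with a library left out (0.0526 to 0.0812), without control RFD replicate 2, 3 or 4, KO RFD replicate 3 or 4 or KO HFD replicate 1. Tomm34 fell by 0.18 ± 0.059 (adjusted p = 0.0367), and its log2 fold change was -0.10 with an adjusted p of 0.318 on library totals. Its call was also lost with no filter on low counts (0.0885) and in 11 of 19 fits with a library left out (0.0501 to 0.0915), without control RFD replicate 1 or 3, control HFD replicate 2, 4 or 5, KO RFD replicate 1, 2 or 4, or KO HFD replicate 1, 3 or 5. All of SAM, TIM22, the small TIM chaperones and the processing peptidase stayed without a call. The related genes Grpel1 (-0.03), Timm17a (-0.01), Timm17b (0.19), Tomm40 (0.10), Dnajc15 (0.09), Dnajc19 (0.15) and Timm8a1 (0.15 ± 0.502, on 0 to 26 counts) did not pass.

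By diet, 1 member was called on RFD, where 7.52% of all genes were called (3.99% higher and 3.54% lower): Grpel2 fell by 0.44 ± 0.121 (adjusted p = 0.0328). On HFD 0 members were called by edgeR and 0 by DESeq2, with 9.57% of all genes called (5.62% higher and 3.95% lower). There, 6 of 35 members had an unadjusted p under 0.05, beside 4001 of the 17254 genes tested. The interaction of genotype with diet called 0 members by both tools, so no difference between the diets was shown. It held 1 member at an unadjusted p under 0.05, beside 406 of all genes. Diet itself called 0 members by both tools in controls, where 0.0406% of genes passed (0.0058% higher and 0.0348% lower on HFD), and 0 under the KO label, where 0.0116% did. At an unadjusted p under 0.05 those diet comparisons held 0 and 1 members, beside 973 and 946 of all genes. The labelled KO HFD replicate 4 lay inside the control range, with Grpel2 at 30.9, Timm21 at 15.9 and Gfer at 9.53 CPM. Without it 10 members were called over the mean of both diets, among 29.7% of all genes, and 3 on HFD, among 20% of all genes. The RFD call of Grpel2 was lost when any of 6 of the 8 RFD libraries was left out, all but control replicate 1 and KO replicate 2.

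Only the Clec16a islets name a sequencing lane, and within lanes 7 and 8 the called members kept their direction on either diet. These members were called on the same libraries, so their signs within lanes are no separate test of lane. The difference of mean log2 CPM of Grpel2 on RFD was -0.44 over all libraries, -0.39 in lane 7 and -0.39 in lane 8. On HFD it was -0.24 over all, -0.30 in lane 7 and -0.22 in lane 8. For Timm44 the lane values were -0.44 and -0.17 on RFD (-0.35 over all) and -0.20 and -0.32 on HFD (-0.27 over all). For Timm21 they were -0.39 and -0.51 on RFD (-0.46 over all) and -0.32 and -0.33 on HFD (-0.30 over all). The lane values of Tomm40l were 0.18 and 0.50 on RFD (0.34 over all) and 0.40 and 0.13 on HFD (0.25 over all). Those of Gfer were 0.31 and 0.18 on RFD (0.37 over all) and 0.54 and 0.16 on HFD (0.32 over all). Those of Tomm34 were -0.10 and -0.25 on RFD (-0.16 over all) and -0.15 and -0.21 on HFD (-0.18 over all). In lane 8 the RFD diet had 1 labelled KO library.

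**Figure D3:**
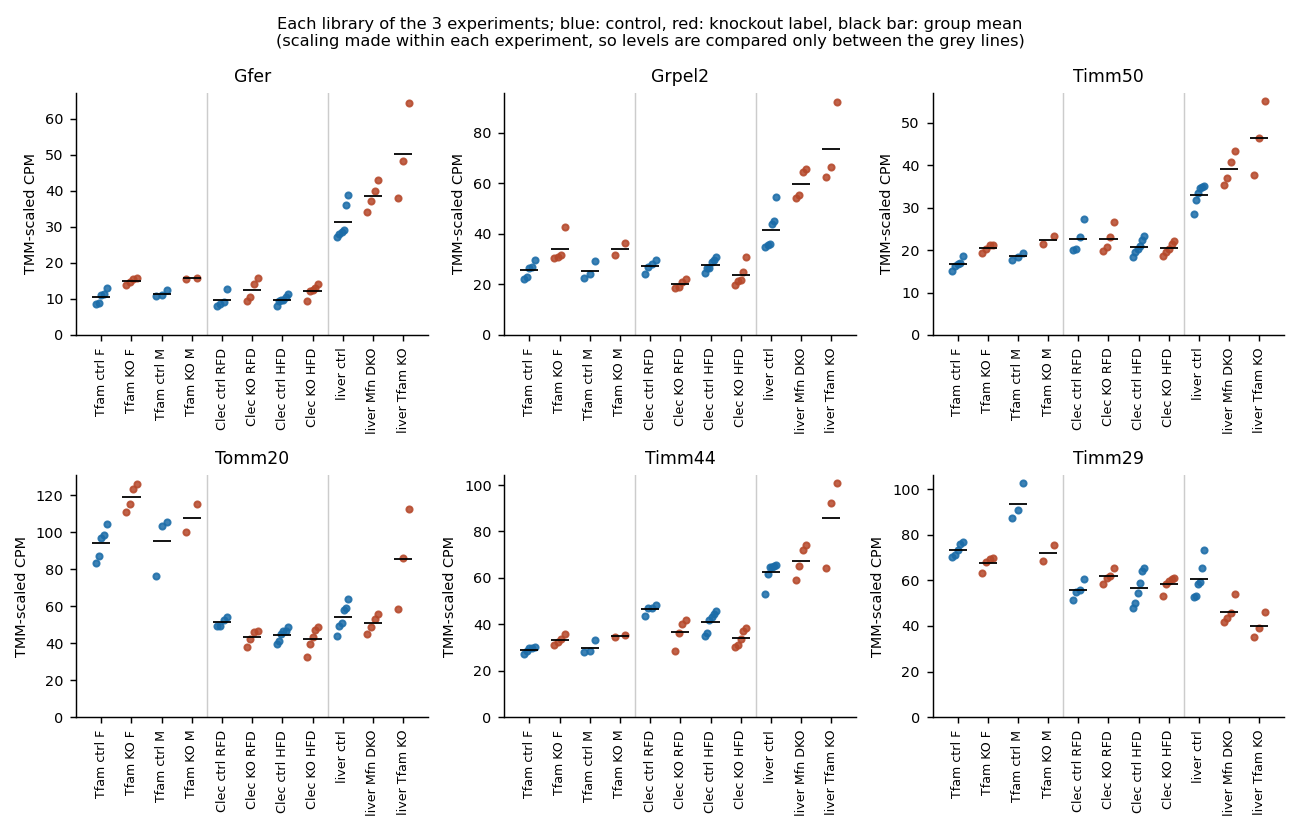
TMM-scaled CPM of Gfer, Grpel2, Timm50, Tomm20, Timm44 and Timm29 in each of the 46 libraries, blue for control and red for a knockout label, with a black bar at the group mean. Grpel2 was called in all 4 main comparisons, higher in Tfam KO islets, Mfn DKO livers and Tfam KO livers and lower under the Clec16a label; Timm29 is the panel in which the Tfam KO groups lie low, a direction that on library totals is small (-0.003 in islets) and not called.

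The Tfam and Clec16a effects in islets differed for 6 of 36 members in a joint fit of both experiments, with 16.3% of 19909 genes called (7.57% higher and 8.71% lower). The effect of Tfam KO was higher for Grpel2 (difference 0.72 ± 0.134, adjusted p = 3.11e-04), Timm44 (0.48 ± 0.104, adjusted p = 0.00141), Tomm20 (0.40 ± 0.111, adjusted p = 0.012) and Tomm34 (0.34 ± 0.101, adjusted p = 0.0167). It was lower for Timm10b (-0.56 ± 0.124, adjusted p = 0.0018) and Timm29 (-0.37 ± 0.086, adjusted p = 0.0028). Of the 12 members higher in Tfam KO islets and the 2 higher under the Clec16a label, 1 was shared, Gfer (8.33% and 50% of the lists), whose call under the Clec16a label was lost in 6 of 19 fits with a library left out. Over all 16899 genes tested in both comparisons, 383 were higher in both, 17.7% and 19.4% of the lists. The median of all genes moved by 0.13 on library totals here, where 11 members were called and Timm29 was not.

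Mfn DKO livers showed few changes in the import genes. Of 35 members 1 rose and 1 fell, with 9.87% of the 17024 genes tested called, 5.23% higher and 4.64% lower. The median log2 fold change was -0.10 over the members and 0.02 over all genes, and 10 of 35 members had a positive value. On library totals 1 member was called, Grpel2, with 82.3% of all called genes higher against 53% on the TMM scale.

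Mtx1, the metaxin that partners Mtx2 at SAM, had 16.5, 18.9, 14.2 and 16.2 CPM in the 4 Mfn DKO livers. The 6 control livers lay at 20.2, 24.4 and 26.7 CPM (lowest, median and highest), above all 4. The log2 fold change was -0.52 ± 0.118 (edgeR quasi-likelihood test, adjusted p = 0.018), and on library totals it was -0.32 (adjusted p = 0.0722). Of the exonic bases of Mtx1, 30.1% overlap Gm43737 on the opposite strand. Grpel2 had 65.5, 55.4, 54.4 and 64.4 CPM in Mfn DKO livers and 34.9, 40.0 and 54.5 CPM in controls, so that 3 of 4 DKO livers exceeded every control (0.52 ± 0.149, adjusted p = 0.0432). This call was lost without any of 9 of the 10 livers of the comparison, all but control replicate 4, and that of Mtx1 without Mfn DKO replicate 1 or 3. The other 33 tested members lay between -0.38 and 0.33 and did not pass. TIM22 members were all negative, with Timm29 at -0.38, Timm10b at -0.37 and Timm22 at -0.30, as were both processing peptidase subunits. Chchd4, which rose in Tfam KO livers, had -0.01 here.

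Tfam KO livers, which were compared with the same 6 control livers as the Mfn DKO livers, had 9 of 35 members higher and 2 lower. In this comparison 29.3% of all genes were called, 18.1% higher and 11.3% lower, so the members' share of 31.4% was close to the background. The median log2 fold change was 0.17 over the members and 0.03 over all genes. On library totals 24 members were called, 24 higher and 0 lower, with 88.9% of all called genes higher against 61.6% on the TMM scale. The members' median was then 0.60 and that of all genes 0.46.

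The 3 Tfam KO livers did not move alike. In replicate 3 several members lay in the range of the controls, while replicates 1 and 2 lay above it. Chchd4 had 51.1, 48.3 and 20.8 CPM in replicates 1, 2 and 3, against 16.6, 19.9 and 28.8 CPM (lowest, median and highest) in controls. Timm10 had 47.2, 38.7 and 20.1 CPM against 16.8, 19.3 and 26.4 in controls, and Tomm20 had 86.2, 112 and 58.3 CPM against 44.1, 54.5 and 64.0. The hepatocyte marker sum was lowest, at 22450 CPM, in a Tfam KO liver too, and its part in these values was not tested. Without replicate 3, 19 members were called, among 41.8% of all genes. Without replicate 1 or replicate 2, 6 were called.

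Grpel2 separated the groups completely, with 66.5, 92.2 and 62.5 CPM in Tfam KO livers and 34.9, 40.0 and 54.5 CPM in controls (log2 fold change 0.82 ± 0.161, edgeR quasi-likelihood test, adjusted p = 0.00365). Tomm5, a small subunit that stabilises the TOM channel, had 52.9, 59.5 and 28.6 CPM against 20.2, 23.3 and 27.7 in controls (0.996 ± 0.198, adjusted p = 0.00401). All 3 libraries of both genes exceeded every control, replicate 3 of Tomm5 by less than the others. Gfer had 64.4, 48.2 and 38.2 CPM against 27.3, 28.9 and 38.9 in controls, so that 2 of 3 exceeded every control (0.68 ± 0.160, adjusted p = 0.00853, and 0.0573 without replicate 1).

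The 2 members that fell were Mtx1 and Timm29. Mtx1 had 15.0, 13.5 and 17.6 CPM in Tfam KO livers against 20.2, 24.4 and 26.7 in controls (-0.61 ± 0.131, adjusted p = 0.00542). Timm29 had 45.9, 35.1 and 39.0 CPM against 52.8, 58.9 and 73.6 (-0.59 ± 0.135, adjusted p = 0.00743). Neither gene overlapped between groups on the TMM scale. On library totals their log2 fold changes were -0.20 and -0.18 and did not pass (adjusted p = 0.184 and 0.324). Timm29 shares 3.4% of its exonic bases with Yipf2 on the opposite strand.

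By role, both relay genes rose in Tfam KO livers, Gfer and Chchd4 (0.93 ± 0.240, adjusted p = 0.0128). The call of Chchd4 was lost without replicate 1 (adjusted p = 0.0738) or replicate 2 (0.0693). TOM gave Tomm5 and Tomm20 (0.66 ± 0.173, adjusted p = 0.0144, and 0.107 without replicate 2), and its other 6 tested members did not pass. Of SAM, Samm50 rose by 0.36 ± 0.102 (adjusted p = 0.0201) with all 3 libraries above every control. Of the small TIM chaperones, Timm10 rose by 0.79 ± 0.223 (adjusted p = 0.0199) and the other 4 tested did not pass. Timm50 was the 1 member of TIM23 called, with 55.1, 46.3 and 37.8 CPM against 28.5, 34.1 and 35.0 in controls (0.49 ± 0.119, adjusted p = 0.0101). In the motor, Timm44 had 101, 92.2 and 64.2 CPM against 52.9, 64.7 and 65.8 in controls, replicate 3 being inside the control range (0.46 ± 0.135, adjusted p = 0.0241). The calls of Samm50, Timm10 and Timm44 did not pass without replicate 1 or replicate 2, and those of Timm50 and Gfer did not pass without replicate 1. All TIM22 members were negative, Timm10b at -0.52 and Timm22 at -0.31 without passing.

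Of the related genes, Grpel1 had 0.07 ± 0.134 in Tfam KO livers beside the 0.82 of Grpel2. Timm17a had 0.47 ± 0.212 and Timm17b -0.42 ± 0.169, on either side of 0, and neither passed (adjusted p = 0.112 and 0.0771). In replicates 1, 2 and 3 Timm17a had 49.6, 71.1 and 29.0 CPM, against 29.4 to 41.1 in controls. Timm17b had 39.0, 23.1 and 48.0 CPM, against 46.3 to 52.35, so replicate 2 lay farthest from the controls for both. Dnajc15 and Dnajc19 also lay on either side of 0 without passing, at 0.23 ± 0.102 and -0.39 ± 0.227 (adjusted p = 0.103 and 0.217). Replicate 2 was again the lowest for Dnajc19, which had 54.4, 25.8 and 69.8 CPM against 54.65 to 77.1 in controls. Tomm40 had 0.37 ± 0.170 (adjusted p = 0.119) and Tomm40l 0.01 ± 0.200. Timm8a1 had 0.26 ± 0.121 (adjusted p = 0.126) on 396 to 1178 counts.

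Set directly against each other, Tfam KO and Mfn DKO livers differed in 0 members by edgeR, with 0.294% of all genes called. At an unadjusted p under 0.05 there were 15 of 35 members, all higher in Tfam KO, beside 3480 of the 17024 genes tested. The Wald test of DESeq2 called 6 members. The smallest adjusted p belonged to Tomm20 (difference 0.76 ± 0.190, adjusted p = 0.0992), followed by Chchd4 (0.95 ± 0.265, adjusted p = 0.101) and Tomm40 (0.63 ± 0.185, adjusted p = 0.108). Without Tfam KO liver replicate 3, 14 members were called, among 24% of all genes.

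The Tfam KO comparisons in islets and livers share no controls. Higher in both were 7 members, Gfer, Grpel2, Samm50, Timm10, Timm44, Timm50 and Tomm20, being 58.3% of the 12 higher in islets and 77.8% of the 9 higher in livers. Over all 15565 genes tested in both comparisons, 839 were higher in both, which is 41.2% of those higher in islets and 28% of those higher in livers. Timm29 fell in both, 50% of either list, and over all genes the shared lower calls were 20.5% and 18.7%. The difference between the members' overlap and that of all genes was not tested. In a joint fit the size of the effect differed between the tissues for 3 of 35 members, with 18.5% of 21096 genes called (7.12% higher and 11.3% lower in islets). The effect in islets minus that in livers was -1.09 ± 0.212 for Tomm5 (adjusted p = 0.002), 0.50 ± 0.142 for Mtx1 (adjusted p = 0.0187) and 0.45 ± 0.157 for Timm22 (adjusted p = 0.0495). Tomm5 had -0.10 in islets and 0.996 in livers. The count rested on the liver libraries: 12 members differed without Tfam KO liver replicate 3, 5 without replicate 1 and 1 without replicate 2. With library totals 8 differed, and the median of all genes then moved by -0.28, so neither Mtx1 nor Timm22 passed. The shares of all genes called in these refits are not given, so the counts do not set the members apart from other genes. The remaining members, Chchd4 among them (-0.73, adjusted p = 0.0566), were not shown to differ.

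**Figure D4:**
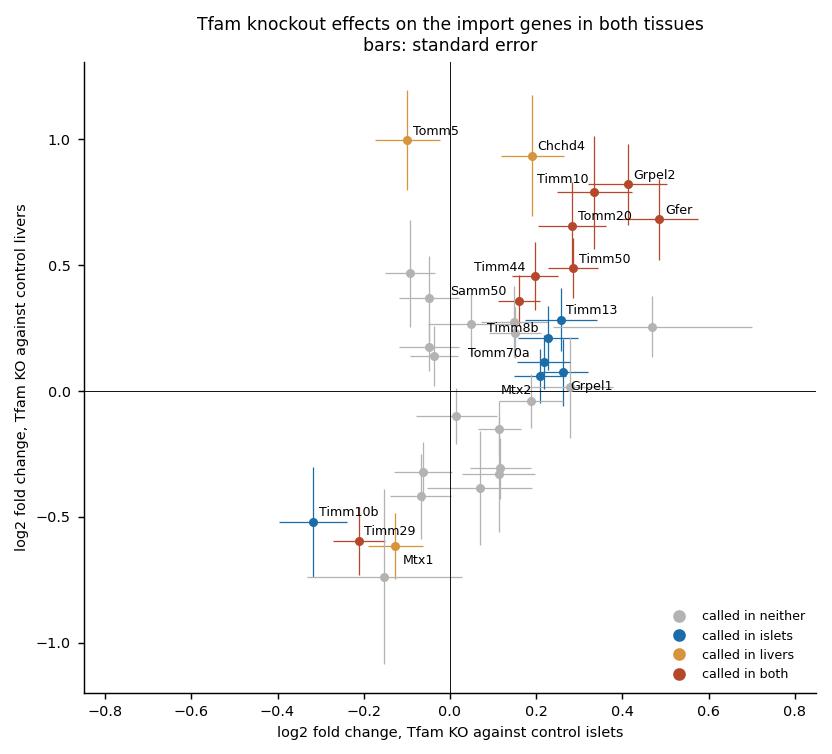
Log2 fold change of each tested member (TMM scale, bars are standard errors) in Tfam KO islets on the horizontal axis and Tfam KO livers on the vertical axis. The 7 members higher in both lie at the upper right and Timm29 at the lower left, Tomm5 at 0.996 in livers and -0.10 in islets lies apart, and the lower calls of Timm29, Timm10b and Mtx1 do not pass on library totals.

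Other genes of mitochondrial import, from a separate list of 33 of which 32 were tested, gave a frame for these changes. In Tfam KO islets 7 rose and 0 fell, 21.9% of the list beside 20.9% of all genes. Hspa9, the chaperone at the core of the motor, went from 269 to 359 CPM in controls to 751 to 944 CPM in Tfam KO islets (log2 fold change 1.47 ± 0.071, adjusted p = 5.24e-10). Pitrm1, which degrades the presequences cut off in the matrix, had 0.48 ± 0.062 (adjusted p = 4.73e-05), and Dnlz, a partner that keeps Hspa9 soluble, had 0.33 ± 0.059 (adjusted p = 8.15e-04). No member reached the fold of Hspa9 in these islets, the highest called being Gfer at 0.49. Under the Clec16a label 2 rose and 3 fell, 15.6% of the list beside 21.6% of all genes, with Mtch1 at -0.52 ± 0.080 (adjusted p = 1.38e-04), Dnlz at 0.45 ± 0.079 (adjusted p = 3.90e-04) and Mtch2 at -0.28 ± 0.071 (adjusted p = 0.00665). Mtch1 and Mtch2 are carrier-like proteins of the outer membrane.

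In Mfn DKO livers 2 of the 32 other import genes rose and 2 fell, 12.5% of the list beside 9.87% of all genes. Hspa9 went from 667 to 836 CPM in controls to 1172 to 2049 CPM (1.18 ± 0.203, adjusted p = 0.00456), a level that no control reached. Apool, of the inner membrane organising system, had -0.42 ± 0.092 (adjusted p = 0.0145) and Pitrm1 had 0.57 ± 0.161 (adjusted p = 0.0411). In Tfam KO livers 7 rose and 3 fell, 31.2% of the list beside 29.3% of all genes, with Pitrm1 at 1.15 ± 0.172 (adjusted p = 0.00109), Hspa9 at 1.39 ± 0.218 (adjusted p = 0.00139) and Chchd6, also of that organising system, at 1.42 ± 0.236 (adjusted p = 0.00183). Hspa9 lay at 1327 to 2630 CPM in Tfam KO livers. In both tissues the exchange factor Grpel2 rose with Hspa9 by a smaller fold, and Grpel1 passed in Tfam KO islets alone among the Tfam comparisons, a difference between tissues that the joint fit did not show.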

How the data were processed

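RNA libraries of mouse islets and livers were sequenced as paired ends (Illumina), per the labels. Each deposited file listed 55487 genes with raw counts, TPM and CPM, per the file headers. The deposited counts were whole numbers, and the authors' CPM equalled the count over the library total. The submitters' processing notes name STAR 2.6.1b, RSEM 1.3.1, featureCounts, FastQC, MultiQC, DESeq2 and the build GRCm38 without roles, and the strand setting of the counting is not given in the sources used here. GENCODE M21 held 55227 of the identifiers and gave positions and exonic overlaps. Near copies were found by aligning transcripts. The NRF1 and YY1 letters were shortened by 1 base after a first search with longer forms had been seen.

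Groups came from the labels. Each experiment was fitted over all genes in R 4.3.3 with edgeR 4.0.16 (quasi-likelihood F-test, two-sided, TMM scaling, filterByExpr), 1 mean per group, and sex as an additive term for Tfam islets over both sexes. Joint fits held 2 experiments. In all 15 comparisons were made, p-values were adjusted by Benjamini-Hochberg over all genes tested, and a gene was called at 0.05 or less. Each standard error is the log2 fold change divided by the square root of its F. Intervals on fold changes are at 95%. P-values measure the spread between these libraries, which may be technical in part. The procedure was tested on simulated data.

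Values per library are given for up to 5 called members with the smallest adjusted p in each of the 4 main comparisons, for members called in 3 or more of them, and, as group values, for 5 pairs of related genes. Members and gene lists were chosen with earlier results of these data known. Alternatives were DESeq2 1.42.0 size factors and its Wald test, no filter on low values or one of at least 10 counts in all libraries, leaving out each library, the replicate number as a block, the exocrine marker score, lane or Xist level as a covariate, no sex term, only the compared groups and, added after seeing the data, library totals without TMM. Whether replicate numbers pair libraries is not given in the labels. The median correlation of residuals between same-numbered libraries was 0.0653, -0.0367 and 0.0873 in the Tfam islets, Clec16a islets and livers. The largest correlations were 0.212, 0.307 and 0.35 in the same order.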

Additional observations from a re-analysis of the deposited data

Results flagged for a closer look

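In the 8 groups of 4 to 6 libraries, 13 of 280 sets of a member in a group (4.64%) had a highest or lowest library far from the rest, and chance gives about 1 in 20. All values are TMM-scaled CPM. In Tfam control females, replicate 4 was high for Mtx2 (37.9, the next library 30.5), Timm17a (49.1, next 42.3) and Tomm22 (50.8, next 39.1). In Tfam KO females, replicate 1 was high for Grpel2 (42.7, next 31.5) and Timm8b (27.3, next 25.8) and low for Tomm40 (25.1, next 31.4), and replicate 2 was low for Timm9 (8.78, next 11.3). Among islets labelled Clec16a KO on RFD, replicate 4 was high for Timm22 (17.8, next 14.1) and replicate 3 for Timm23 (6.96, next 4.67). On HFD, replicate 1 was high for Timm10 (8.52, next 6.45) and replicate 4 for Timm8a1 (0.393, next 0.138), a gene with few counts there. In livers, Mfn DKO replicate 3 was high for Timm21 (26.2, next 22.3) and control replicate 5 was low for Timm44 (52.9, next 61.7).

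The effect of Tfam KO differed between islets and livers, by a test of the difference itself, for Tomm5 (-1.087 on the log2 scale, islets minus livers), Mtx1 (0.502) and Timm22 (0.452). These were 3 of 35 members, beside 18.5% of all genes, and Mtx1 and Timm22 did not pass on library totals. In islets, the Tfam and Clec16a effects differed for Grpel2 (0.719, Tfam minus Clec16a), Timm44 (0.482), Tomm20 (0.397), Tomm34 (0.344), Timm29 (-0.372) and Timm10b (-0.56). These were 6 of 36 members, beside 16.3% of all genes, and Timm29 was not called on library totals.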

How the results depend on the processing

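No member that was called changed direction under any alternative. Over the called members, 333 of 391 fits with another setting and 650 of 772 fits with a library left out kept the call, and the others lost it. The number of members called moved by more than 1.5 times as follows. On library totals without TMM it was 25 in Tfam KO islets over both sexes (14 before), 21 in females (7), 14 in males (1), 0 under the Clec16a label on RFD (1) and 1 on HFD (0). It was then 1 in Mfn DKO livers (2), 24 in Tfam KO livers (11), 8 between Tfam KO and Mfn DKO livers (0), 8 between tissues (3) and 11 between the Tfam and Clec16a effects (6). The construction of that setting moves all genes together, as the shift of the median shows. The Wald test of DESeq2 called 3 in males, 2 on RFD, 4 in Mfn DKO livers, 6 between Tfam KO and Mfn DKO livers and 6 between tissues. With the exocrine score as a covariate 4 were called in females, 4 on RFD and 1 on HFD. A fit of only the compared groups called 2 in males, 2 on RFD and 5 in Mfn DKO livers. No filter on low counts left 1 in Mfn DKO livers, and at least 10 counts in every library gave 5 between tissues. The cause of these shifts was not tested. Some member counts under an alternative, in this section or above, stand without the share of all genes called in the same fit. Such a count does not set the members apart from other genes.

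With the replicate number as a block, the counts were 6 in Tfam KO islets over both sexes (14 before), 4 in females (7) and 0 on RFD (1). They were 0 in Mfn DKO livers (2 before), 0 in Tfam KO livers (11) and 0 between tissues (3). Whether these numbers pair libraries is not given in the labels. Leaving out each library gave ranges of 9 to 17 members in Tfam KO islets over both sexes, 1 to 9 in females and 0 to 1 in males. Under the Clec16a label the ranges were 0 to 1 on RFD, 0 to 3 on HFD and 4 to 10 over both. In livers they were 0 to 2 for Mfn DKO, 6 to 19 for Tfam KO and 0 to 14 between Tfam KO and Mfn DKO. Between tissues the range was 1 to 12 and between the Tfam and Clec16a effects 5 to 8. The sex and diet interactions and the diet comparisons called 0 members in every fit. Where 1 male KO library was left, it was taken to vary like the other groups. Levels per length from CPM were not run, since the files give no gene length. Members with few counts, such as Timm8a1 in the Clec16a islets (0 to 26 counts), have wide intervals.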

Other observations

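Some further import genes, named here after their values were seen, passed in a Tfam comparison. In Tfam KO islets Immp2l, a subunit of the inner membrane peptidase, had a log2 fold change of 0.57 ± 0.125 (edgeR, adjusted p = 0.00372), the metaxin Mtx3 had 0.30 ± 0.065 (adjusted p = 0.00356) and Trap1, a matrix chaperone of the HSP90 family, had 0.24 ± 0.050 (adjusted p = 0.00229). In Tfam KO livers the folding chamber genes Hspd1 and Hspe1 had 0.63 ± 0.150 (adjusted p = 0.00905) and 0.44 ± 0.137 (adjusted p = 0.0286). The cytosolic J-protein Dnaja1 had -0.90 ± 0.207 (adjusted p = 0.00767) there and -0.65 ± 0.185 (adjusted p = 0.042) in Mfn DKO livers, which share the control libraries, while its relative Dnaja2 had 0.51 ± 0.139 (adjusted p = 0.0172) in Tfam KO livers.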
